A study of Mus musculus with 6 samples.

Results

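The DNA replication origin and fork genes are a set of 51 genes whose products mark and license replication origins, unwind DNA, copy it, supply nucleotides and repackage the new strands. Members were picked by gene symbol from a list of names and found by symbol among the 24982 genes listed for each library. All 51 were listed, and all 51 were among the 12409 genes with enough coverage to be tested. RNA-seq had been done on a pair of groups of C57BL/6 mouse keratinocytes started from neonatal skin, with no treatment. Each group is called a line here and has 3 libraries. Cells of the first line were derived and kept in KSFM-Ca2+, a serum-free medium with low calcium, and are called KSFM-Ca2+ cells here. Cells of the second line, the DKSFM cells, descend from KSFM-Ca2+ cells that survived a move to DKSFM, a defined medium with more calcium. Medium, calcium and descent through survivors therefore differ together between the lines and cannot be told apart. The study derived several lines in KSFM-Ca2+ and does not state how many gave these libraries. Whether the replicates came from separate cultures is not stated either, so the p-values measure the spread between these libraries, which may be technical.

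Before a cell divides it copies each stretch of DNA once. The origin recognition complex, Cdc6 and Cdt1 load the ring of Mcm2 to Mcm7 onto origins, a kinase, Cdc45 and the GINS complex turn that ring into an active helicase, and polymerases held by the Pcna clamp then copy both strands. In the epidermis most dividing cells sit in the basal layer, and keratinocytes leave the cell cycle as they differentiate.

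Each library was a directional poly(A) library of total RNA, and the value of a gene is its read coverage, the mean number of reads over each base of its transcripts. Because coverage is per base, levels can be set side by side between genes. Coverage summed over all genes was 1601676, 1238411 and 1057750 in KSFM-Ca2+ replicates 1 to 3, and 1174348, 1239438 and 1170675 in DKSFM replicates 1 to 3. Values scaled to remove these differences are called normalized coverage. Fold changes are DKSFM against KSFM-Ca2+ on the scale log2(normalized coverage + 0.1), tested with limma, with p-values adjusted by the Benjamini-Hochberg method over all tested genes. A gene is called lower or higher at an adjusted p under 0.01, and a 2-fold call also asks for a log2 fold change of at least 1 in size.

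The keratinocyte label was set against marker genes. The summed normalized coverage of 6 keratinocyte markers was 18770, 19229 and 18838 in the KSFM-Ca2+ libraries and 44644, 40633 and 45173 in the DKSFM libraries. *Krt14*, a keratin of basal keratinocytes, was the most abundant of them, with means of 12001 and 29657, and limma called 5 of the 6 higher in DKSFM, against 35.1% of all tested genes. The other, *Cdh1*, which encodes E-cadherin, was called lower, from 159.8 ± 2.46 to a mean of 145.4 (log2 fold change -0.14, adjusted p = 0.00292). That call was lost without KSFM-Ca2+ replicate 1 (0.0130) or 3 (0.0107), without DKSFM replicate 1 (0.0133) or 2 (0.0106), without limma's intensity trend (0.0125), with quantile normalization (0.0278) and with replicate 3 as the lone KSFM-Ca2+ library (0.0258, with the spread taken from the DKSFM libraries), in a range over the alternatives from 0.00181 to 0.0278. For E-cadherin the study reports the other direction, increased expression in the DKSFM cells, with *Cdh1* measured by qPCR. Markers of other cell types were low beside these sums. Among them limma called *Pdgfra* (log2 fold change 0.95), *Mitf* (2.30) and *Pecam1* (1.41) higher in DKSFM. *Cd74*, at 0 in every DKSFM library, was called lower. Of 6 fibroblast markers, *Col1a1*, *Col1a2*, *Col3a1*, *Dcn* and *Lum* were listed at 0 in every library, and the sum of the list, all of it *Pdgfra*, ran from 0.893 to 1.30 in KSFM-Ca2+ and from 2.09 to 2.33 in DKSFM. Melanocyte markers summed to between 3.97 and 4.61 and to between 17.3 and 18.6, mostly *Mitf*, with *Tyr* and *Dct* at 0. Immune markers reached at most 2.01 in KSFM-Ca2+, mostly *Cd74*, and 0.199 in DKSFM, with *Cd3e* at 0. Endothelial markers reached at most 3.31 and 8.26, mostly *Pecam1*, with *Cdh5* at 0. What part these shifts in markers play in the values of the replication genes was not tested.

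Most of the replication genes had less RNA in the DKSFM cells. At an adjusted p under 0.01, limma called 46 of the 51 members lower, against 37.4% of all tested genes, and 20 lower by at least 2-fold, against 10.6%. Higher calls went to 3 members, *Orc3*, *Rfc3* and *Rrm1*, against 35.1% of all tested genes. *Orc5* and *Pold2* passed in neither direction. The median log2 fold change of the members was -0.88, while that of all tested genes was -0.01 and 13.1% of tested genes lay at or under the members' median. Summed over the set, normalized coverage was 5862, 6057 and 6233 in the KSFM-Ca2+ libraries and 3829, 3705 and 3691 in the DKSFM libraries, or 61.8% of the KSFM-Ca2+ mean. In bulk RNA, fewer cycling cells and less of these RNAs in each cell cannot be told apart.

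**Figure D1:**
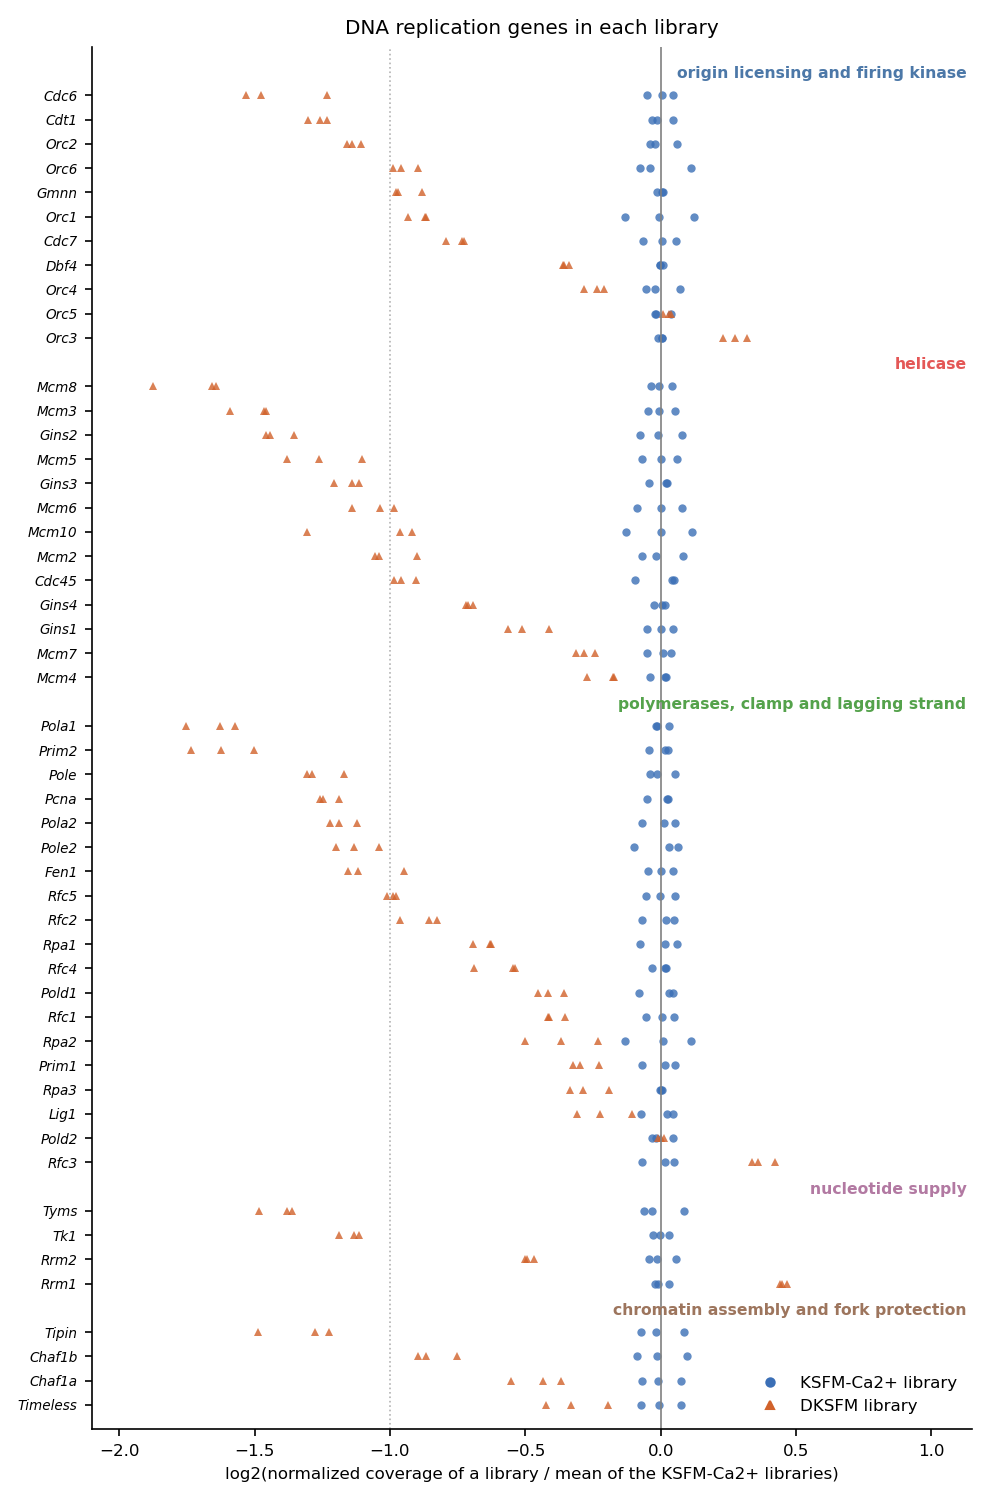
Normalized coverage of each of the 51 members in each library, over the member's KSFM-Ca2+ mean (log2). Members are grouped by role, with 1 point per library and 3 libraries per line. In 46 members every KSFM-Ca2+ point lies above every DKSFM point, and in *Orc3*, *Rfc3* and *Rrm1* the order is the other way.

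The plot of every member by library shows how little the lines overlapped. All KSFM-Ca2+ libraries lay above all DKSFM libraries in 46 members, against 42.4% of tested genes, and the reverse held in 3, against 40.9%. The SD between libraries, as a percent of the mean, had a median of 3.71% in KSFM-Ca2+ and 3.77% in DKSFM, and was widest for *Orc1* in KSFM-Ca2+ (8.83%) and *Mcm10* in DKSFM (14.0%). Mean levels ran from 12.4 for *Orc1* to 516 for *Tipin* in KSFM-Ca2+, and from 6.401 for *Gins3* to 290.1 for *Rrm1* in DKSFM. The most abundant member thus differed between the lines.

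**Figure D2:**
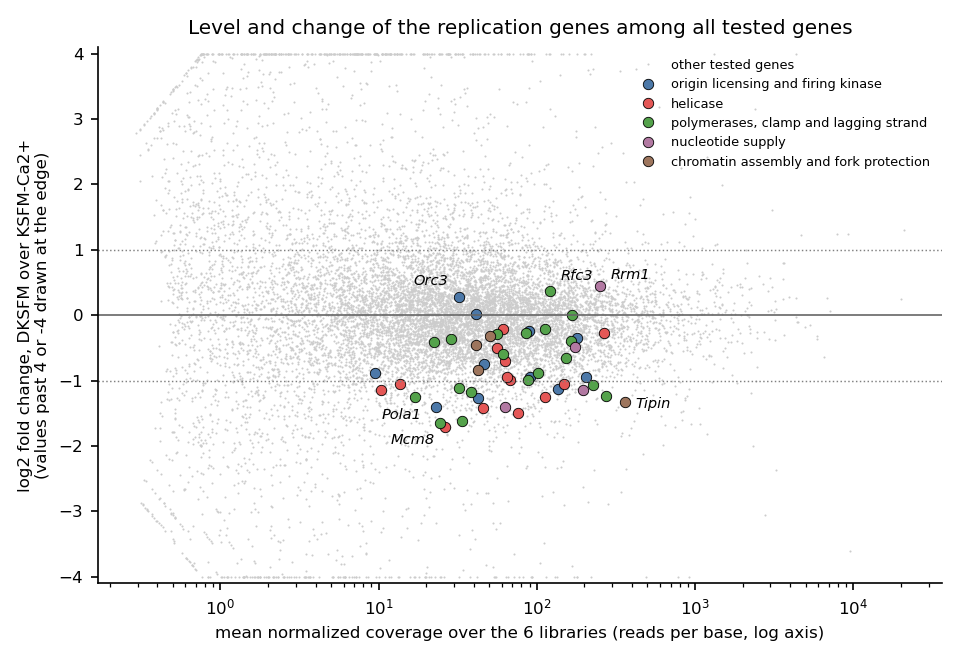
Log2 fold change (DKSFM against KSFM-Ca2+) of each member against its mean normalized coverage (log axis), 1 point per member, coloured by role. Values run from -1.72 for *Mcm8* to 0.45 for *Rrm1*.

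Many replication genes are known targets of the E2F factors, so the stretch around each gene's start, 250 bases before to 50 bases after it, was searched for an E2F form (TTTCCCGC, TTTCGCGC, TTTGCCGC or TTTGGCGC, on both strands). RefSeq promoters on GRCm38.p6 were matched for 42 of the 51 members; *Gins1*, *Gins2*, *Gins4*, *Gmnn*, *Mcm4*, *Pole*, *Prim2*, *Rfc2* and *Tipin* had no entry. An E2F form was in 15 of the 42 (35.7%), in 704 of all 27025 genes with a promoter (2.6%) and in 467 of the 9618 tested genes with a promoter (4.86%). Several promoters were matched for some members, among them *Lig1* (3) and *Mcm7* (2), both of the 15. Printed here, 5′ to 3′ in the sense of the gene, are the members with the largest falls at origin, helicase and polymerase, then the 3 members that rose, to show that both kinds can carry the same letters. Capitals mark an E2F form on either strand. *Cdc6* (chr11:98907901-98908200, plus strand), *Mcm8* (chr2:132815891-132816190, plus strand) and *Pola1* (chrX:93632106-93632405, minus strand) fell, while *Orc3* (chr4:34614893-34615192, minus strand), *Rfc3* (chr5:151651159-151651458, minus strand) and *Rrm1* (chr7:102441445-102441744, plus strand) rose.
Cdc6: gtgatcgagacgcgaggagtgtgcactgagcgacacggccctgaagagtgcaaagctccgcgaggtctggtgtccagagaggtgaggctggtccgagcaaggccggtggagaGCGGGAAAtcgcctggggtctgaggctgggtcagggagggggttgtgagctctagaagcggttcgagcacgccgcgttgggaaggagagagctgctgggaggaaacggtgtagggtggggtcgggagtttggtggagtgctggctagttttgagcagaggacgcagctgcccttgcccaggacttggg
Mcm8: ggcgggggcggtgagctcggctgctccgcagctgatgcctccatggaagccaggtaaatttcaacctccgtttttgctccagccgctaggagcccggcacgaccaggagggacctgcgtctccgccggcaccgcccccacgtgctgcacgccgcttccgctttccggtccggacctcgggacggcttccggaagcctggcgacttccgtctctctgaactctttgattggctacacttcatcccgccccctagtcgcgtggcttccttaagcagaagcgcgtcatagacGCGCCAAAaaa
Pola1: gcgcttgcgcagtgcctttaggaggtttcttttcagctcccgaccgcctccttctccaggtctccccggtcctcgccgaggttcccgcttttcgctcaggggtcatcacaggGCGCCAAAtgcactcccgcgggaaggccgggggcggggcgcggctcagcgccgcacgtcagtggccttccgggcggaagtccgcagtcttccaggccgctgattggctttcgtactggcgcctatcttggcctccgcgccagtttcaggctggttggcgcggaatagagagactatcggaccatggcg
Orc3: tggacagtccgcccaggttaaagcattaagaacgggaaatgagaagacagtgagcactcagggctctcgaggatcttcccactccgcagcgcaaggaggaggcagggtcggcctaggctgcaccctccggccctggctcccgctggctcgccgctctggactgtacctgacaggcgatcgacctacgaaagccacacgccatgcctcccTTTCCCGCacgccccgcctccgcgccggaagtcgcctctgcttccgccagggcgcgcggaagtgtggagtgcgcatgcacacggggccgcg
Rfc3: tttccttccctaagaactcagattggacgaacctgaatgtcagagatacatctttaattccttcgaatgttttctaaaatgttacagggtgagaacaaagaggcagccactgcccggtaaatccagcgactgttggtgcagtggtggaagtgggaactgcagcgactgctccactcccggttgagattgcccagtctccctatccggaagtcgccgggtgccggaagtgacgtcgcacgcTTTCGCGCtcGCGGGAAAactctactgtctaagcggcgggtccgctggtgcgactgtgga
Rrm1: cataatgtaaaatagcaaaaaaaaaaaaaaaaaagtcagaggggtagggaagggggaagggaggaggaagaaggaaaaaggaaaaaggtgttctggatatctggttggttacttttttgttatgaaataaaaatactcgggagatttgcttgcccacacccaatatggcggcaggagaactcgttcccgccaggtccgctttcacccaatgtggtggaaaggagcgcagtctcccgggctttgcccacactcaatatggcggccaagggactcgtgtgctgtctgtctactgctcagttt

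The E2F word began 138 bases before the RefSeq start in *Cdc6* and in *Pola1*, 41 bases before it in *Orc3*, and 39 bases after it in *Mcm8*. *Rfc3* held 2 words, one 10 bases before the start and one at the start itself, and *Rrm1* held none in this window. For *Cdc6* the whole window, from 98907901, lies after the start that GENCODE M21 gives, 98907801. The bases before that GENCODE start were not searched. The 15 members with an E2F form had a median log2 fold change of -1.12 (from -1.72 to 0.37), and the 27 without one had a median of -0.65. Over all tested genes the medians were -0.17 for the 467 with the form and 0.01 for the 9151 without. A match describes the letters and shows no binding.

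A pair of other words were counted in the same windows on both strands; neither contains or is contained in an E2F form, though ends can overlap. CCAAT, the letters bound by NF-Y, was in 25 of 42 members (59.5%), in 41.1% of all genes with a promoter and in 43.4% of the tested ones. The members with and without it had median log2 fold changes of -0.88 and -0.83. TTTGAA, a form of the CHR element of mitosis genes, was in 7 of 42 members (16.7%). That share is under the 20.2% of all genes with a promoter and over the 14.2% of the tested ones. In the 20 genes with a promoter of a list of mitosis genes the shares were 3 (15.0%) for the E2F form, 17 (85.0%) for CCAAT and 15 (75.0%) for TTTGAA. No test compared the shares of the members with those of the mitosis genes.

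Origin licensing and its kinase made up 11 members, with a median log2 fold change of -0.88. Of these 9 fell (37.4% of all tested genes did), 3 by at least 2-fold (10.6%). Summed coverage of these genes in DKSFM was 61.6% of that in KSFM-Ca2+. *Cdc6*, which helps load the Mcm ring onto origins (GRCm38, GENCODE M21, chromosome 11 from 98907801 to 98923940, plus strand), had normalized coverages of 32.2, 34.45 and 33.4 in KSFM-Ca2+ replicates 1 to 3 and of 14.2, 11.5 and 12.0 in DKSFM replicates 1 to 3. Every DKSFM library lay below every KSFM-Ca2+ library by more than the spread within either line. Its log2 fold change, the largest fall of the origin genes, was -1.41 (limma, SE 0.080, adjusted p = 8.33e-07). *Cdt1*, the partner of Cdc6 in loading, fell from 60.05 ± 1.69 to 25.0 ± 0.616 (SD, 3 libraries per line), and geminin (*Gmnn*), the protein that blocks Cdt1, fell less, from 119.9 ± 0.857 to 62.3 ± 2.35. The ratio of *Cdt1* to *Gmnn* was 0.516, 0.493 and 0.494 in the KSFM-Ca2+ libraries and 0.386, 0.4003 and 0.418 in the DKSFM libraries, so the loader was lower against its inhibitor in every DKSFM library.

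The 6 subunits of the origin recognition complex did not move together. *Orc6*, the smallest subunit and the most abundant origin gene in KSFM-Ca2+, though behind *Dbf4* in DKSFM (chromosome 8 from 85299632 to 85308278, plus strand), stood at 256.6, 263.2 and 292.3 in KSFM-Ca2+ and at 145.5, 139.3 and 136.3 in DKSFM. The lines were far apart, and its log2 fold change was -0.95 (SE 0.052, adjusted p = 6.55e-07), or -0.46 less the median of the tested genes within 10 Mb. *Orc3* (chromosome 4 from 34570796 to 34614944, minus strand) went the other way, from 29.1, 29.2 and 28.8 to 34.1, 36.3 and 35.1. All 3 DKSFM libraries were above the narrow KSFM-Ca2+ range, with a log2 fold change of 0.27 (SE 0.040, adjusted p = 0.000282). Less the median of the tested genes within 10 Mb, the log2 fold change of *Orc3* was 0.12. *Orc5* (chromosome 5 from 22486485 to 22550429, minus strand) had 40.4, 42.0 and 40.4 in KSFM-Ca2+ and 42.05, 41.75 and 41.2 in DKSFM. These ranges overlapped, and the log2 fold change of 0.03 did not pass (SE 0.036, adjusted p = 0.525).

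As shares of the summed coverage of the complex, *Orc2* went from 29.4% to 21.8% and *Orc6* from 42.5% to 35.9%, while *Orc3* went from 4.57% to 8.999%, *Orc5* from 6.43% to 10.7% and *Orc4* from 15.2% to 21.0%. *Orc1*, which binds ATP in the complex, was the scarcest at 1.94% and 1.71%. The sum itself was 636.8 ± 24.5 in KSFM-Ca2+ and 390.9 ± 7.37 in DKSFM. Part of the exon length of *Orc2* (29.8%) lies across exons of *Nif3l1* on the other strand, and although the reads were aligned with a strand setting, the study's methods do not describe the step that turned them into coverage. *Orc4* fell from 96.9 ± 4.45 to 82.0 ± 2.09, a call that was lost (adjusted p = 0.0227, the highest of 16 alternatives, the lowest being 0.000436) when the KSFM-Ca2+ line was represented by replicate 3 alone, the KSFM-Ca2+ library marked as combined like the 3 DKSFM ones. With a lone library in that line the spread comes from the DKSFM libraries only, and small folds can lose their call through the lower number of libraries.

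The kinase that fires licensed origins is made of Cdc7 and its activator Dbf4. *Cdc7* fell from 58.1 ± 2.42 to 34.5 ± 0.862 (log2 fold change -0.75, adjusted p = 9.19e-07) and *Dbf4* fell from 202.0 ± 0.957 to 158.3 ± 1.47 (log2 fold change -0.35, adjusted p = 3.20e-06). The activator was the more abundant of the pair throughout. Its ratio to the kinase was 3.48, 3.34 and 3.63 in KSFM-Ca2+ and 4.49, 4.50 and 4.77 in DKSFM.

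All 13 helicase members fell (37.4% of all tested genes did), 7 of them by at least 2-fold (10.6%). Their median log2 fold change of -1.05 was the lowest of the 5 roles. The sum of their coverage in DKSFM was 57.2% of that in KSFM-Ca2+. *Mcm8*, a helicase of recombination repair outside the replicative ring (chromosome 2 from 132816141 to 132844197, plus strand), had the largest fall of the whole set. Its normalized coverage was 39.9, 41.2 and 39.1 in KSFM-Ca2+ and 12.7, 12.8 and 10.9 in DKSFM. The DKSFM mean was 30.3% of the KSFM-Ca2+ mean with no overlap, at a log2 fold change of -1.72 (SE 0.068, adjusted p = 1.13e-07). *Mcm7*, the most abundant ring subunit (chromosome 5 from 138164583 to 138172422, minus strand), had 281.9, 299.9 and 293.9 in KSFM-Ca2+ and 246.9, 234.7 and 239.8 in DKSFM. It was lower in every DKSFM library but by far less than *Mcm8*, at a log2 fold change of -0.28 (SE 0.033, adjusted p = 8.08e-05). *Mcm4* (chromosome 16 from 15623897 to 15637400, minus strand) had the smallest fall of the helicase genes, from 63.4, 65.9 and 66.1 to 57.8, 53.97 and 57.6. The gap between the lines was narrow but no library crossed it, at a log2 fold change of -0.21 (SE 0.040, adjusted p = 0.0015). With replicate 3 as the lone KSFM-Ca2+ library its adjusted p was 0.0157, in a range over the alternatives from 0.000852 to that value.

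The ring holds its 6 subunits in equal number, so their RNA levels were also compared as shares of the Mcm2 to Mcm7 sum. That sum was 878.1, 924.1 and 947.2 in KSFM-Ca2+ and 567.8, 520.3 and 544.8 in DKSFM. *Mcm7* made up 32.1%, 32.45% and 31.0% of it in KSFM-Ca2+ and 43.5%, 45.1% and 44.0% in DKSFM, 12.3 percentage points more on average. The share of *Mcm4* was 3.27 points higher in DKSFM, going from 7.11% ± 0.125 to 10.4% ± 0.196. The other 4 had smaller shares in DKSFM, *Mcm3* going from 12.3% ± 0.152 to 7.295% ± 0.194, *Mcm5* from 17.2% ± 0.141 to 12.2% ± 0.651, *Mcm6* from 21.7% ± 0.452 to 17.6% ± 0.246 and *Mcm2* from 9.84% ± 0.228 to 8.30% ± 0.235. No share overlapped between the lines, and each exact two-sided permutation test gave p = 0.1 (0.1 also after adjustment over the 6 subunits), the smallest value that 3 against 3 libraries allow. This test could therefore not pass a threshold of 0.05 whatever the shares were.

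**Figure D3:**
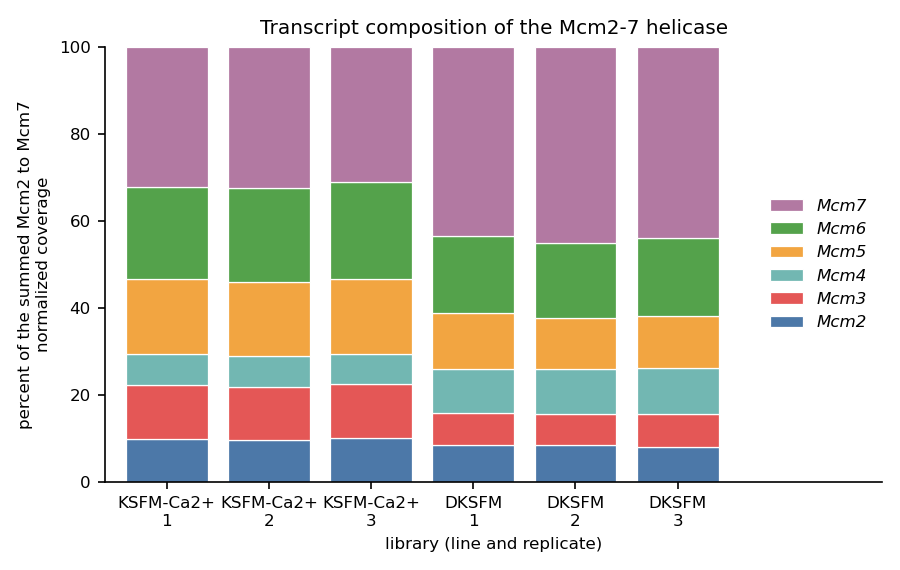
Share (percent) of each of *Mcm2* to *Mcm7* in their summed normalized coverage, drawn as 1 stacked bar per library with 3 libraries per line. *Mcm7* goes from a mean of 31.9% in KSFM-Ca2+ to 44.2% in DKSFM, and *Mcm3* from 12.3% to 7.295%.

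Cdc45 and GINS join the ring to form the working helicase. *Cdc45* fell from 85.6 ± 4.79 to 44.3 ± 1.29 (log2 fold change -0.95, adjusted p = 4.32e-07). Of the 4 GINS genes, *Gins2* fell most (-1.41), then *Gins3* (-1.14), *Gins4* (-0.71) and *Gins1* (-0.50). Less the medians of the tested genes within 10 Mb, these were -0.82, -0.58, -0.42 and -0.44, which puts *Gins1* before *Gins4*. In the GINS sum, which was 224.3 ± 4.41 and 125.6 ± 3.86, the share of *Gins2* went from 29.7% to 19.9% and that of *Gins1* from 29.3% to 37.2%. Exons of *Gse1* on the other strand cover 67.3% of the *Gins2* exons, so part of its coverage could belong to that gene if that step did not use the strand. *Mcm10*, which acts when the helicase starts to move, was scarce, at 18.4 ± 1.55 and 8.88 ± 1.24, and fell with a log2 fold change of -1.05 (adjusted p = 3.75e-05).

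Polymerases, the clamp and the lagging strand factors were the largest role, with 19 members. Of these 17 fell (37.4% of all tested genes did), 7 by at least 2-fold (10.6%), and *Rfc3* rose (35.1%). The median log2 fold change of the role was -0.65, and its summed coverage in DKSFM was 64.2% of that in KSFM-Ca2+. *Pola1*, the catalytic subunit of polymerase alpha, which starts each new strand (chromosome X from 93304767 to 93632155, minus strand), had 36.4, 36.5 and 37.7 in KSFM-Ca2+ and 12.4, 11.9 and 10.9 in DKSFM. Each line kept within a narrow range and the DKSFM mean was 31.9% of the other, at a log2 fold change of -1.64 (SE 0.057, adjusted p = 5.63e-08). *Pcna*, the clamp (chromosome 2 from 132249162 to 132253314, minus strand), had the highest mean over both lines in this role (in DKSFM alone *Pold2* was higher), with 369.2, 389.0 and 389.4 in KSFM-Ca2+ and 167.9, 159.8 and 161.0 in DKSFM. DKSFM cells had 42.6% of the KSFM-Ca2+ level, at a log2 fold change of -1.23 (SE 0.034, adjusted p = 1.58e-08). The primase subunits, which make the RNA primer with polymerase alpha, parted. *Prim2* fell from 50.65 ± 1.30 to 16.5 ± 1.35 and *Prim1* from 61.85 ± 2.68 to 50.9 ± 1.79, so that the ratio of *Prim1* to *Prim2* was 1.14, 1.25 and 1.27 in KSFM-Ca2+ and 2.81, 3.48 and 3.01 in DKSFM.

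Both catalytic subunits of the leading and lagging strand polymerases fell. *Pole*, of polymerase epsilon, went from 23.8 ± 0.775 to 9.999 ± 0.517, and *Pold1*, of polymerase delta, from 25.6 ± 1.21 to 19.3 ± 0.637. *Pold2*, an accessory subunit of polymerase delta (chromosome 11 from 5872180 to 5878292, minus strand), stood at 165.7, 164.0 and 172.9 in KSFM-Ca2+ and at 168.8, 166.4 and 167.5 in DKSFM. The DKSFM values lay inside the KSFM-Ca2+ range, and the log2 fold change of 0.0006 did not pass (SE 0.030, adjusted p = 0.986). The ratio of *Pold2* to *Pold1* was accordingly 6.85, 6.21 and 6.62 in KSFM-Ca2+ and 8.81, 8.90 and 8.39 in DKSFM.

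The clamp is placed on DNA by replication factor C, with 5 subunits. *Rfc3* (chromosome 5 from 151642756 to 151651242, minus strand) had 100.6, 106.7 and 109.4 in KSFM-Ca2+ and 135.4, 141.4 and 133.4 in DKSFM. It was higher in every DKSFM library, at a log2 fold change of 0.37 (SE 0.041, adjusted p = 4.39e-05), while the other 4 subunits fell, from -0.39 for *Rfc1* to -0.99 for *Rfc5*. Its share of the summed coverage of the complex was 17.0%, 17.2% and 17.2% in KSFM-Ca2+ and 29.1%, 30.4% and 30.01% in DKSFM. *Rfc5* went from 19.1% to 12.9% of that sum and *Rfc2* from 21.4% to 15.6%, and *Rfc1*, the large subunit, was at 30.4% and 31.0%. Exons of genes on the other strand cover 15.1% of *Rfc2*, 12.7% of *Rfc4* and 10.7% of *Rfc5*.

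Replication protein A covers single-stranded DNA at the fork. *Rpa1* fell from 187.6 ± 9.15 to 119.6 ± 2.996 (log2 fold change -0.65) and *Rpa3* from 93.7 ± 0.207 to 77.7 ± 3.93 (-0.27, adjusted p = 0.000315, or 0.0108 with replicate 3 as the lone KSFM-Ca2+ library, in a range over the alternatives from 0.000171 to that value). *Rpa2* had 29.7, 32.7 and 35.1 in KSFM-Ca2+ and 27.65, 22.96 and 25.15 in DKSFM, a gap smaller than the spread within either line. Its log2 fold change of -0.36 passed (SE 0.083, adjusted p = 0.00373) but no longer did without DKSFM replicate 2 (0.0170), DKSFM replicate 3 (0.0150), KSFM-Ca2+ replicate 2 (0.0125) or KSFM-Ca2+ replicate 3 (0.0147), in a range over the alternatives from 0.00192 to 0.0170. On the lagging strand, *Fen1*, which trims the flaps between fragments, fell from 309.3 ± 9.98 to 147.1 ± 11.5. *Lig1*, the ligase that seals the fragments, had 114.2, 122.3 and 124.1 in KSFM-Ca2+ and 102.8, 96.9 and 111.7 in DKSFM. This narrow gap gave a log2 fold change of -0.21 (SE 0.056, adjusted p = 0.00795), and the call was lost without DKSFM replicate 1 (0.0287), DKSFM replicate 2 (0.0295), KSFM-Ca2+ replicate 2 (0.0250) or KSFM-Ca2+ replicate 3 (0.0281), in a range over the alternatives from 0.00234 to 0.0312.

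Nucleotide supply was represented by 4 members. Of these 3 fell (37.4% of all tested genes did), 2 by at least 2-fold (10.6%), and *Rrm1* rose (35.1%). The 4 members had a median log2 fold change of -0.82. Their summed coverage in DKSFM was 76.2% of that in KSFM-Ca2+. *Tyms*, thymidylate synthase (chromosome 5 from 30058202 to 30073617, minus strand), had 87.6, 89.4 and 97.0 in KSFM-Ca2+ and 35.1, 32.7 and 35.55 in DKSFM. DKSFM cells had 37.7% of the KSFM-Ca2+ level, at a log2 fold change of -1.40 (SE 0.051, adjusted p = 7.26e-08). *Tk1*, the thymidine kinase of the salvage route, fell from 269.4 ± 5.52 to 121.7 ± 3.27 (log2 fold change -1.15). *Rrm1*, the large subunit of ribonucleotide reductase (chromosome 7 from 102441695 to 102469771, plus strand), had 209.0, 210.6 and 217.0 in KSFM-Ca2+ and 293.4, 289.3 and 287.7 in DKSFM. This was the largest rise of the set, with both lines tight around their means, at a log2 fold change of 0.45 (SE 0.027, adjusted p = 1.11e-06). *Rrm2*, the small subunit, which varies with the cell cycle in dividing cells, fell from 204.2 ± 7.37 to 145.7 ± 1.73 (-0.49, adjusted p = 2.47e-06). Coverage of *Rrm2* was thus 0.948, 0.960 and 0.979 times that of *Rrm1* in KSFM-Ca2+ and 0.503, 0.499 and 0.504 times in DKSFM.

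Chromatin assembly and fork protection held 4 members, with a median log2 fold change of -0.64. All 4 fell (37.4% of all tested genes did), 1 of them by at least 2-fold (10.6%). Their summed coverage in DKSFM was 46.9% of that in KSFM-Ca2+, the lowest share of the 5 roles, and *Tipin* made up most of it. *Tipin* (chromosome 9 from 64281581 to 64305424, plus strand), which with Timeless steadies stalled forks, had 490.7, 510.3 and 547.8 in KSFM-Ca2+ and 213.3, 220.7 and 184.0 in DKSFM. Its DKSFM mean was 39.9% of the KSFM-Ca2+ mean, at a log2 fold change of -1.33 (SE 0.070, adjusted p = 5.48e-07). *Timeless* itself (chromosome 10 from 128232065 to 128252941, plus strand) had 55.85, 53.4 and 59.1 in KSFM-Ca2+ and 44.6, 41.85 and 49.0 in DKSFM. The partners thus fell unequally, *Timeless* by a log2 fold change of -0.31 (SE 0.064, adjusted p = 0.00197). *Chaf1b*, a subunit of the CAF-1 histone chaperone, fell from 54.5 ± 3.50 to 30.5 ± 1.65, and *Chaf1a*, its large subunit, from 47.7 ± 2.40 to 34.9 ± 2.25, with 52.5% of the *Chaf1a* exon length under exons of *Ubxn6* on the other strand.

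Other genes of the same pathways were counted in 5 further lists, to be read against the shares of all tested genes (37.4% lower, 10.6% lower by at least 2-fold, 35.1% higher). Of 9 other origin firing factors, 6 fell, with a median log2 fold change of -0.80, and 1 fell by at least 2-fold, which is near the share of all tested genes. *Donson*, which helps build the helicase, fell most, from 14.4, 16.0 and 15.4 to 6.99, 7.16 and 6.47 (log2 fold change -1.14, adjusted p = 1.30e-06), and *Topbp1*, the most abundant in KSFM-Ca2+ but not in DKSFM, fell from 55.1, 56.1 and 57.2 to 30.2, 30.7 and 28.97. The remaining 3 did not pass, *Lrwd1* at -0.13 (adjusted p = 0.0423), *Mcmbp* at -0.14 (0.0108, but 0.00764 with library totals and 0.00769 with quantile normalization, up to 0.0348 over the alternatives) and *Mcm9* at 0.39 (0.0214). *Mcm9*, the partner of *Mcm8* in repair, was scarce, at 2.14, 2.28 and 2.84 in KSFM-Ca2+ and 3.18, 3.08 and 3.29 in DKSFM. Without KSFM-Ca2+ replicate 3 it passed (log2 fold change 0.51, adjusted p = 0.00446, in a range from that value to 0.375).

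**Figure D4:**
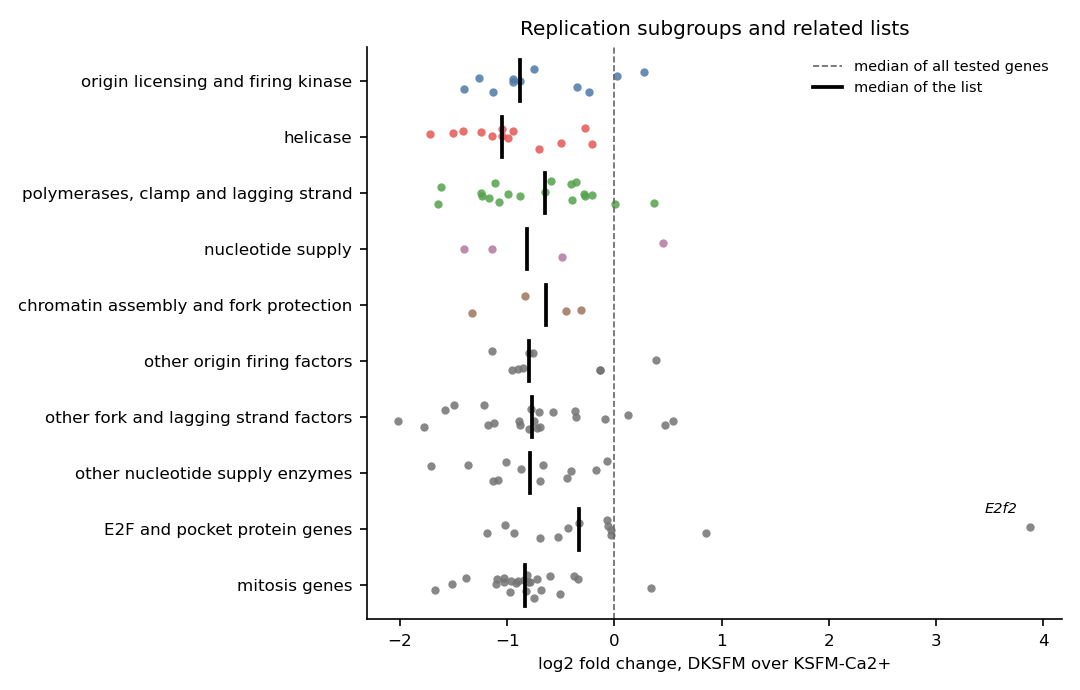
Log2 fold change (DKSFM against KSFM-Ca2+) of each gene in the 5 roles of the set and in 5 further lists, 1 point per gene with a line at each median. Medians of the further lists run from -0.83 for the mitosis genes to -0.33 for the E2F and pocket protein genes.

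Of 22 other fork and lagging strand factors, 18 fell, 7 by at least 2-fold, and 2 rose, with a median of -0.77. *Pclaf*, which binds Pcna, fell most, with 124.7, 121.9 and 133.1 in KSFM-Ca2+ and 32.0, 30.2 and 31.4 in DKSFM. That is a deeper fall than any member of the set showed, at a log2 fold change of -2.02 (SE 0.043, adjusted p = 4.97e-09). *Pole3*, a histone-fold subunit of polymerase epsilon, rose from 120.4, 122.5 and 137.9 to 187.1, 180.0 and 188.2 (log2 fold change 0.55, adjusted p = 2.05e-05), while *Pole4*, its histone-fold partner, fell from 46.9 to 21.5 on average. The histone chaperones of the Asf1 pair also parted, *Asf1b* falling from 97.3 ± 2.44 to a mean of 28.3 and *Asf1a* rising from 15.9 ± 1.285 to 22.1 ± 1.28. *Dnmt1*, the maintenance DNA methyltransferase and the most abundant of the list, fell from 288.4, 289.5 and 284.2 to 229.4, 214.3 and 223.1. *Top1* (-0.09, adjusted p = 0.0735) and *Rnaseh2c* (0.12, adjusted p = 0.0116) did not pass. *Rnaseh2c* did without KSFM-Ca2+ replicate 1 (log2 fold change 0.16, adjusted p = 0.00421), with relative log expression size factors (0.00536) and with quantile normalization (0.00187), in a range over the alternatives from 0.00187 to 0.0543.

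Among 12 other enzymes of nucleotide supply 11 fell, 5 by at least 2-fold, with a median of -0.78. *Dut*, which keeps uracil out of DNA by breaking down dUTP, had 153.7, 158.7 and 170.6 in KSFM-Ca2+ and 51.4, 47.7 and 48.0 in DKSFM (log2 fold change -1.71, adjusted p = 1.89e-08), the largest fall of that list. *Rrm2b*, the other small subunit of ribonucleotide reductase, fell from 27.9 ± 0.821 to a mean of 10.8, so both small subunits fell while the large one rose. *Ctps*, a CTP synthase and the most abundant in DKSFM but not in KSFM-Ca2+, fell from 149.8, 157.5 and 159.1 to 116.4, 116.7 and 118.4. *Shmt1* did not pass (-0.07, adjusted p = 0.227).

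The E2F factors and their pocket protein partners, which switch many replication genes on and off, moved in both directions. Of 13 such genes 7 fell (37.4% of all tested genes did), 2 rose (35.1%) and 4 did not pass, with a median of -0.33. *E2f7*, a repressor, fell most, from 17.1, 16.1 and 16.8 to 7.41, 6.76 and 7.53 (log2 fold change -1.19, adjusted p = 7.00e-07). *E2f2*, an activator, rose most, from 0.916, 0.397 and 0.473 to 9.11, 9.045 and 10.8 (log2 fold change 3.88, adjusted p = 1.92e-06). The size of this fold leans on KSFM-Ca2+ values near the rounding step of 0.1. Of the KSFM-Ca2+ libraries only replicate 1 reached 0.5, so *E2f2* was tested through its DKSFM values. Its p-value and rank are therefore given as description only. *E2f1*, another activator, fell from a mean of 67.3 to 53.5. Of the DNA-binding partners, *Tfdp1*, the most abundant of the list, fell from 689.8, 699.1 and 678.3 to 428.1, 422.3 and 430.1, and *Tfdp2* rose from 31.8 ± 2.93 to 57.3 ± 2.90 (log2 fold change 0.85, adjusted p = 7.83e-06). The 4 that did not pass were *E2f3* (-0.07), *E2f5* (-0.06), *E2f6* (-0.03) and *Rbl2* (-0.03).

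Mitosis genes, which act after replication is done, were mostly lower too. Of 24, limma called 23 lower, 7 by at least 2-fold, with a median of -0.83. *Bub1*, a checkpoint kinase of the spindle, fell most, from 88.5, 83.5 and 88.2 to 29.8, 25.65 and 26.3 (log2 fold change -1.67, adjusted p = 6.49e-08). *Cenpa*, the histone of centromeres, was the 1 gene of the list that rose, from 509.9, 463.5 and 447.3 to 611.6, 582.1 and 597.5 (log2 fold change 0.34, adjusted p = 0.000252). It was the most abundant of the list in DKSFM, and *Tpx2*, at 566.6 against 473.6, was in KSFM-Ca2+. Lower coverage was therefore shared by genes of replication and of mitosis, and no test compared the lists.

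Since stretches of chromosome can differ between lines, each member was set beside the tested genes within 10 Mb of it. Neighbour medians ran from -0.59 around *Gins2* to 0.55, with a median of 0.01, over 27 to 250 neighbours. Below their neighbours lay 48 members, and above them *Orc3*, *Rfc3* and *Rrm1*. *Rrm1* stood 0.75 above the median of its neighbours, which was -0.30. The median of the members' values less those of their neighbours was -0.75. For 9 of the 49 called members this made the fold change smaller by over 1.5 times, among them *Orc2* (-0.60), *Orc6* (-0.46), *Cdt1* (-0.71), *Mcm6* (-0.65), *Gins2* (-0.82), *Gins3* (-0.58), *Gins4* (-0.42) and *Orc3* (0.12). For 8 it made the size larger by as much, among them *Mcm4* (-0.53), *Timeless* (-0.61), *Lig1* (-0.77) and *Pold1* (-0.96). *Orc5*, at -0.08, and *Pold2*, at -0.34, which had not passed, changed sign.

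**Figure D5:**
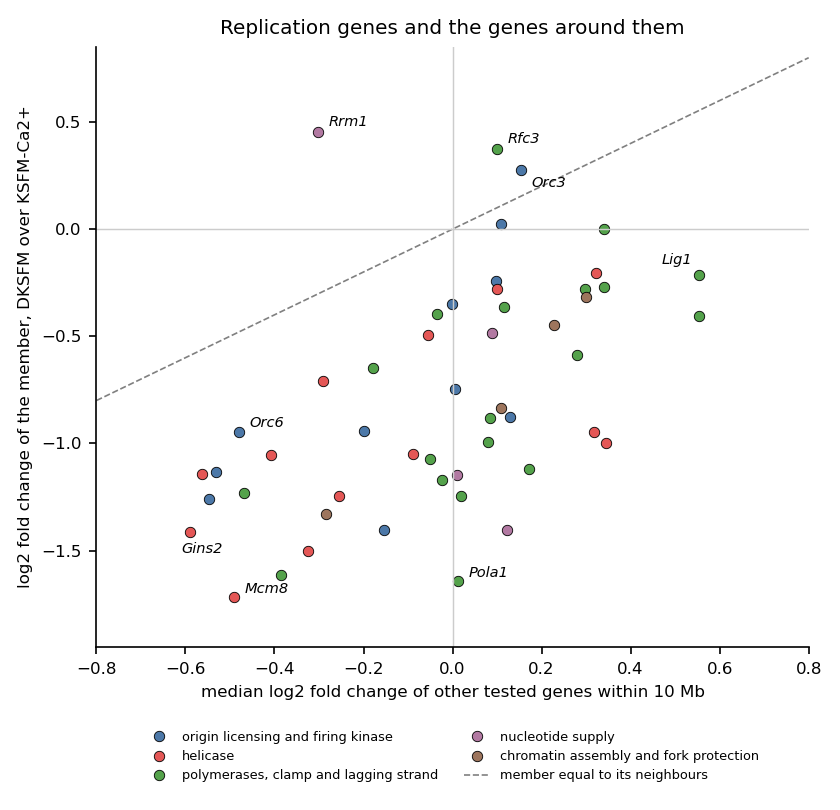
Log2 fold change of each member (vertical axis) against the median log2 fold change of the tested genes within 10 Mb (horizontal axis), 1 point per member. Of the 51 points 48 lie under the line of equal values.

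Some chromosomes as a whole were lower in DKSFM and carried members. The 6 members on chromosome 8 had a median log2 fold change of -1.19, beside -0.43 for the 661 tested genes there, and the 4 on chromosome 1 had -1.32 beside -0.43 for 709 genes. The 10 members on chromosome 5, among them *Mcm7*, *Tyms*, *Pole*, *Orc5* and *Rfc3*, had a median of -0.57 beside 0.07 for 808 genes. On chromosome 2 the 5 members, *Pcna* and *Mcm8* included, had -1.05 beside 0.0021 for 961 genes, but the stretch that holds these 2 genes was lower than that. Neighbours within 10 Mb had a median of -0.47 around *Pcna* (104 genes) and -0.49 around *Mcm8* (96 genes), and less these medians *Pcna* stood at -0.76 and *Mcm8* at -1.23. Neighbour medians were under -0.3 for 11 members, of which 10 fell and *Rrm1* rose, and what part the position plays in these values was not tested.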

How the data were processed

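The 6 libraries were grouped by the line named in their labels, 3 KSFM-Ca2+ and 3 DKSFM. The authors deposited a coverage signal per gene, the mean number of reads over each base to 1 decimal, without scaling to library size and without a filter. The study's methods describe strand-aware alignment with STAR in a BaseSpace application and quantification with Salmon, but not the step that made the coverage values or whether it used the strand. The submitters' notes list bcl2fastq, STAR, DESeq2 and mm10. A count model had been planned, but coverage is not a count, so limma was used. Counting error cannot be given for coverage, and low values are limited by rounding to steps of 0.1.

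Scaling used the trimmed mean of M values without weights (trims of 30% of M and 5% of A values, factors from 0.989 to 1.01). A gene was tested if 3 or more libraries (2 or more where a library was left out) reached 0.5 after scaling. A pseudocount of 0.1 was added before the log2. Linear models with an intensity trend were fitted to all 12409 genes and p-values adjusted over all of them, two-sided, at the study's thresholds (adjusted p 0.01, 2-fold). The procedure was tested on simulated data. R 4.3.3, limma 3.58.1, Python 3.11.15, pandas 2.3.3 and matplotlib 3.10.9 were used. GENCODE M21 gave positions and exons for the 24490 genes whose symbols it holds and not for 492. Promoters came from RefSeq.

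The members and lists were chosen with earlier results of these data known. Members given library by library are, in each role, those with the largest fall, the smallest change and the highest mean over both lines, those that rose, and *Pcna*; in each further list, those with the largest fall, the largest rise and the highest mean. *Rpa2*, *Lig1* and *Mcm9*, given in the same way, other named genes, the ratios, the shares within complexes other than the Mcm ring, and the promoters printed were chosen after their values were seen.

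Alternatives were library totals, relative log expression size factors, quantile normalization, pseudocounts of 0.5 and 1, no filter, the filter applied in every library, no trend, a replicate block, an adjusted p of 0.05, limma treat, values less those of neighbours, each library left out, and the libraries marked as combined only (1 against 3, with the spread of the DKSFM libraries), a word in the deposited names of KSFM-Ca2+ replicate 3 and all DKSFM replicates that is not explained. Protein and other measurements of the study were not used here, and its qPCR of *Cdh1* is only cited.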

Additional observations from a re-analysis of the deposited data

How the results depend on the processing

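Over 17 alternatives the count of lower members ran from 42 to 46, with 42 in the libraries marked as combined only, where 1 KSFM-Ca2+ library faces 3, and 3 were higher in each. The 2-fold count ran from 19 to 23 in those that test against no change, and was 11 with treat, which tests against a 2-fold change. The members' median of -0.88 ran from -0.93 to -0.85 with 1 library left out, was -0.93 in the libraries marked as combined only and -0.75 less neighbours; the cause was not tested. Calls lost for *Orc4*, *Mcm4*, *Rpa3*, *Rpa2* and *Lig1* are given above. *Lig1* was lost in 9 alternatives, and *Rpa2* also without the trend (adjusted p = 0.0127). In refits, fold changes near 0 turned in sign for 4 genes. *Pold2* was at -0.006 with library totals, at -0.0397 in the libraries marked as combined only and from -0.0141 to 0.0256 with 1 library left out. Leaving out 1 library gave -0.1524 to 0.1027 for *E2f5*, -0.0616 to 0.0092 for *E2f6* and -0.0557 to 0.0131 for *Rbl2*, and the libraries marked as combined only gave 0.1391 for *E2f5* and 0.0063 for *Rbl2*. Less neighbours, set for the median and not refitted, *Orc5* was at -0.0825 and *Pold2* at -0.3396. None of those refits passed, and the cause was not tested. With a replicate block, 46 members were lower, 20 by at least 2-fold, 3 higher, with a median of -0.88. Residual correlations between libraries of the same number were -0.00514, 0.0238 and -0.00610, and not every library correlated best with its own number. No pairing by number was seen, but such small correlations cannot show whether libraries of the same number were handled together.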
